A study of Homo sapiens with 6 samples.

Results

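The genes described here encode the kinetochore, the inner centromere and the spindle assembly checkpoint, together with the chromosomal passenger complex, the SKA complex and the RZZ complex. They were chosen by name: 45 gene symbols were looked up in the deposited table of 46427 genes, and all 45 were found. They were sorted into 9 checkpoint genes, 7 genes of the RZZ complex and the fibrous corona, 9 genes of the KMN network, 13 inner centromere *CENP* genes, 4 passenger complex genes and 3 *SKA* genes. RNA came from HCT116, a human colon carcinoma cell line. Parental cells carry wild type *ZKSCAN3* (*ZK3*-WT), and in *ZK3*-KO cells CRISPR/Cas9 was used to remove the start codon of this zinc finger gene. No other treatment was given to either group, and each is represented by 3 biological replicates. The *ZK3*-KO line was obtained by single-cell selection under puromycin, which is not described for the parental cells, so the edit cannot be told apart from the clone and its selection.

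The kinetochore is the protein assembly that links each chromosome to spindle microtubules. Its inner layer is built on nucleosomes that hold CENPA, and its outer layer, the KMN network, binds the microtubule. While any kinetochore is unattached, checkpoint proteins recruited by KNL1 produce an inhibitor of CDC20, the activator of the anaphase-promoting complex, and anaphase waits. Many of these genes are transcribed mainly in S, G2 and M phase in dividing cells, whereas others are expressed throughout the cell cycle.

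Between 60827060 and 69739215 reads were counted per library, and the 45 genes received between 108094 and 236305 of them. All 45 passed the expression filter, with 236 reads as the lowest value for any of them in a library (*CENPP* in *ZK3*-KO replicate 3). *ZK3*-KO replicate 3 stood apart from the other *ZK3*-KO libraries: the correlation of log2 CPM across genes was 0.953 and 0.938 with replicates 1 and 2, against 0.978 between replicates 1 and 2 and 0.978 to 0.984 among *ZK3*-WT libraries. Fold changes and calls for the genes named in full are therefore given with and without it. *ZKSCAN3* itself had a log2 fold change of -0.16 (FDR 0.797), and reads counted over the whole gene do not test a deletion at its start codon. Of 10 epithelial markers, 6 were above 10 TPM in every library, *KRT20* was as low as 0.498 TPM, and *CDX1* had no read. The 6 blood cell markers summed to 0.408 to 0.790 TPM in *ZK3*-WT libraries and 0.460 to 8.64 TPM in *ZK3*-KO libraries, where *HBB* alone had 8.45 TPM (177 reads) in *ZK3*-KO replicate 2. *PTPRC* and *CD3E* had no read, and the part of these transcripts in the results was not tested. The 6 fibroblast markers summed to 17.5 to 21.7 TPM in *ZK3*-WT and 12.1 to 29.3 TPM in *ZK3*-KO libraries, and only *COL1A1* among them exceeded 10 TPM in every library.

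The order of transcript levels was set by length-scaled TPM values. *CDC20*, whose protein activates the anaphase-promoting complex, was the most abundant of the genes, at 196 ± 62.8 TPM (SD, n = 3) in *ZK3*-WT cells. It was followed by *BIRC5* (survivin) at 105 ± 15.7 TPM, *AURKB* (Aurora B kinase) at 99.3 ± 16.8 TPM and *BUB3*, a checkpoint adaptor, at 86.6 ± 8.14 TPM. The libraries of these 3 genes overlapped, at 89.7 to 121 TPM for *BIRC5*, 80.8 to 114 TPM for *AURKB* and 79.7 to 95.6 TPM for *BUB3*. The fifth level was that of *CENPF*, a large corona protein, at 61.3 ± 19.1 TPM. At the other end were *CENPL* at 11.2 ± 0.494 TPM, *CENPQ* at 8.99 ± 0.741 TPM, *CENPC* at 6.77 ± 1.03 TPM, *NSL1* at 4.06 ± 0.225 TPM and *CENPP* at 1.43 ± 0.187 TPM, and no neighbours among these 5 overlapped. Of these 5, only *NSL1*, a subunit of the MIS12 complex, is not an inner centromere protein. *CENPC* and *CENPQ*, like *CENPP* and *CENPL*, belong to the constitutive network that sits on centromeric chromatin.

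**Figure D1:**
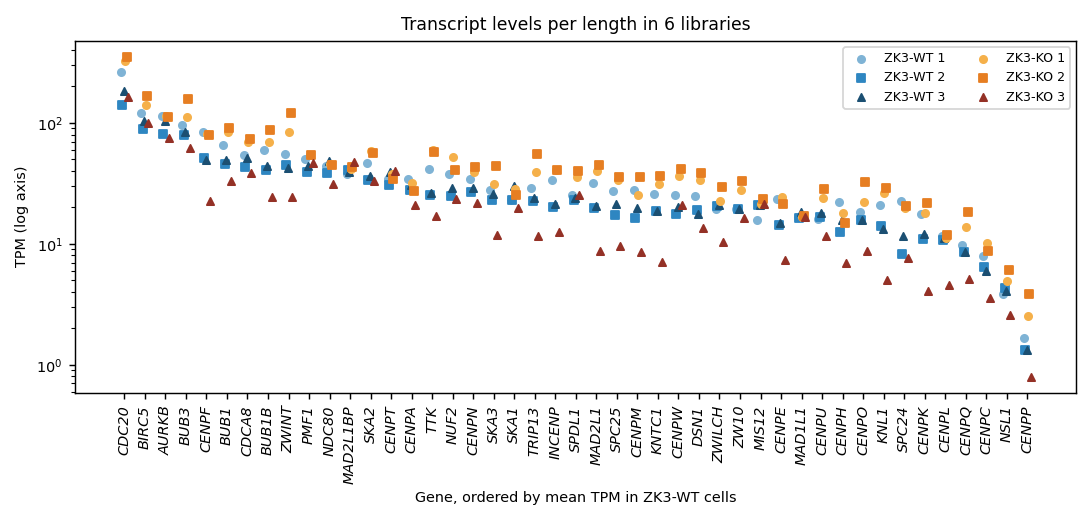
TPM (log axis) of each of the 45 genes in the 6 libraries, ordered by the mean of the 3 *ZK3*-WT libraries. Levels run from 196 TPM for *CDC20* to 1.43 TPM for *CENPP*, and *ZK3*-KO replicate 3 is the lowest point for many of the genes.

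The genotype comparison asked which of these genes differ between *ZK3*-WT and *ZK3*-KO cells. With all 6 libraries, 0 of the 45 genes passed edgeR's quasi-likelihood test at a false discovery rate (FDR) of 0.05, where 2.05% of all 18366 tested genes did. With the replicate number as a block the count was also 0, against 2.51% of all tested genes. An unadjusted p-value under 0.05 in edgeR's test was reached by 4 of the 45 (18.4% of all tested genes). All 4 had a log2 fold change above 0, where 8.89% of all tested genes were under 0.05 in this direction, a like share. DESeq2 called 1 gene, *SPDL1* (8.2% of all tested genes). The log2 fold change was above 0 for 42 of 45 genes (51.7% of all tested genes), or 40 of 45 with library totals alone as the scaling, with a median of 0.34 over the 45 genes and 0.02 over all tested genes. The median was 0.23 with 40 genes above 0 in the fit with the replicate block, and 0.16 with 32 above 0 with limma on TPM, where the median of all tested genes was -0.08. In the main comparison it ranged from -0.27 for *CENPH* to 0.76 for *CENPP*. Without *ZK3*-KO replicate 3, 21 of the 45 genes passed (15.1% of all genes tested there), each of them higher in *ZK3*-KO cells (7.41% of all genes tested there), and the median was 0.59. Without *ZK3*-KO replicate 2 none passed (0.835% of all genes tested there), and the median was 0.11.

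*ZK3*-KO libraries differed from each other more than the genotypes did. The 45 genes together held 2675, 1888 and 2086 CPM in the *ZK3*-WT libraries (replicates 1 to 3, the order used throughout) and 3135, 3408 and 1749 CPM in the *ZK3*-KO libraries. The means were 2217 ± 409 and 2764 ± 889 CPM (SD, n = 3 each). *ZK3*-KO replicates 1 and 2 therefore lay above every *ZK3*-WT library, and *ZK3*-KO replicate 3 lay below every one. In bulk RNA, fewer cells that express a gene and less of its RNA per cell cannot be told apart. *ZK3*-KO replicates 1 and 2 were both above all *ZK3*-WT libraries for 32 of the 45 genes (24.5% of all tested genes), and *ZK3*-KO replicate 3 was below all *ZK3*-WT libraries for 27 (37.9% of all tested genes). The groups of all 3 libraries did not overlap for 6 genes, all higher in *ZK3*-KO cells, against 26.6% of all tested genes in either direction and 12.7% in this one. They were *MAD2L1BP*, *ZW10*, *SPDL1*, *PMF1*, *CENPW* and *BIRC5*, and the number was 3 (*MAD2L1BP*, *SPDL1* and *PMF1*) when only library totals were used for scaling, where 26.6% of all tested genes did not overlap. The number was 32 without *ZK3*-KO replicate 3, against 50.1% of all genes tested there. In the deposited TPM values, an alternative chosen after seeing the data, the groups did not overlap for 2 of the 45 genes, *MAD2L1BP* and *MIS12* (25.2% of all tested genes in either direction).

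**Figure D2:**
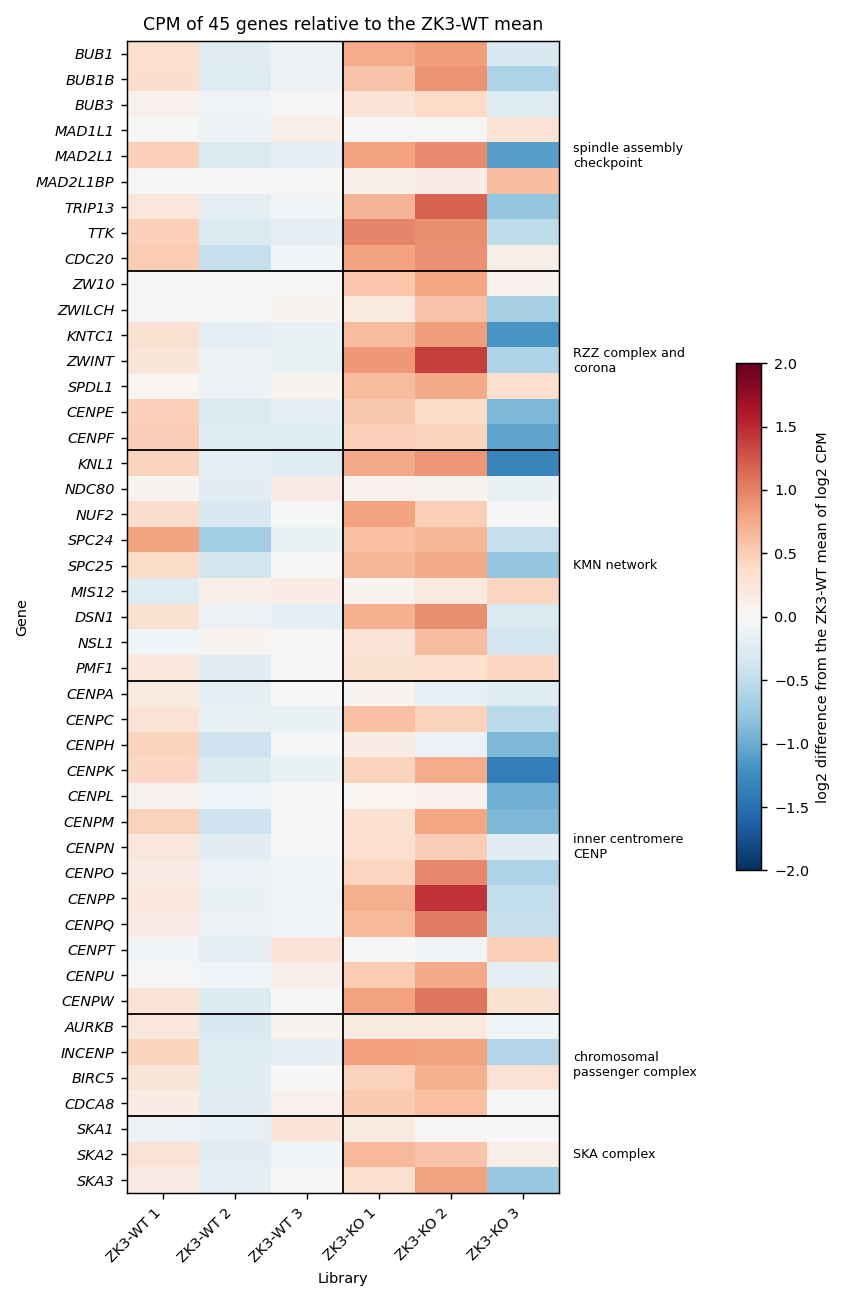
Each row is a gene and each column a library, and the colour gives the log2 CPM relative to the mean of the 3 *ZK3*-WT libraries, with complexes separated by lines. Most rows are above 0 in *ZK3*-KO replicates 1 and 2 and below 0 in *ZK3*-KO replicate 3, while *MAD1L1*, *MAD2L1BP*, *MIS12*, *PMF1* and *CENPT* are highest in *ZK3*-KO replicate 3 on this scale (in TPM, of these 5, *MAD2L1BP* and *CENPT*).

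Among the checkpoint genes, all 9 had a log2 fold change above 0 and a median of 0.42, which was 0.78 without *ZK3*-KO replicate 3 and 0.14 without *ZK3*-KO replicate 2. The fit without the former called 6 of them (*BUB1*, *BUB1B*, *MAD2L1*, *TRIP13*, *TTK* and *CDC20*), and it was a fit that called 15.1% of all genes and 7.41% as higher. The largest value was that of *CDC20*, on chromosome 1 of GRCh37 from 43824652 to 43828874. Its counts were 210, 108 and 143 CPM in *ZK3*-WT cells and 258, 279 and 161 CPM in *ZK3*-KO cells. The groups overlapped, since *ZK3*-KO replicate 3 lay below *ZK3*-WT replicate 1. The log2 difference between genotypes was 0.60 (standard error, SE, 0.299, FDR 0.339), and it was 0.82 without *ZK3*-KO replicate 3 (FDR 0.0458, and up to 0.733 in the other alternatives). *MAD1L1*, which anchors MAD2 at unattached kinetochores, had the smallest value in this group. Its level was 21.5, 20.1 and 23.5 CPM in *ZK3*-WT cells and 21.3, 22.1 and 26.5 CPM in *ZK3*-KO cells (log2 fold change 0.10, SE 0.157, FDR 0.775), which was 0.01 without *ZK3*-KO replicate 3 and -0.03 on the TPM scale with limma. *MAD2L1BP* (p31comet) helps to take the checkpoint complex apart together with the ATPase TRIP13. Its values were 23.3, 23.9 and 24.1 CPM in *ZK3*-WT cells against 25.4, 26.3 and 36.6 CPM in *ZK3*-KO cells, so the groups did not overlap. Between genotypes it differed by 0.31 on the log2 scale (SE 0.179, FDR 0.410), and 0.13 without *ZK3*-KO replicate 3, its highest library. *BUB3* had 204, 184 and 191 CPM in *ZK3*-WT cells and 232, 253 and 161 CPM in *ZK3*-KO cells (log2 fold change 0.16, SE 0.194, FDR 0.713). Its change was 0.34 once *ZK3*-KO replicate 3 was left out and 0.03 once *ZK3*-KO replicate 2 was. Pseudogene copies can share reads with *CDC20*, and the copy *CDC20P1* held up to 330 reads in a library.

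In *MAD2L1*, which encodes the MAD2 protein of the inhibitory complex, the libraries spread further than in *BUB3*. Its level was 80.5, 47.4 and 51.0 CPM in *ZK3*-WT cells and 101, 112 and 27.1 CPM in *ZK3*-KO cells. *ZK3*-KO replicate 3 differed from the mean of the other *ZK3*-KO libraries by -1.97 on the log2 scale. Without it the log2 change between genotypes was 0.84 (FDR 0.0315, and up to 0.949 in the other alternatives). This change was 0.10 without *ZK3*-KO replicate 2. For *TRIP13* the difference of *ZK3*-KO replicate 3 was -1.71 and for the checkpoint kinase gene *TTK* it was -1.47. Their log2 fold changes were 0.94 and 0.92 without that library, and 0.11 and 0.37 without *ZK3*-KO replicate 2. The choice of *MAD2L1*, *TRIP13* and *TTK* was made with these values in view.

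The RZZ complex (*ZW10*, *ZWILCH* and *KNTC1*) brings dynein to the kinetochore, and *ZWINT*, *SPDL1*, *CENPE* and *CENPF* act in the same outer region. All 7 genes had a log2 fold change above 0, with a median of 0.31, or 0.68 without *ZK3*-KO replicate 3 and -0.02 without *ZK3*-KO replicate 2. With the replicate block the median was 0.11 and 6 of 7 were above 0, and with limma on TPM it was -0.04 and 3 of 7 were above 0. The genes that passed without *ZK3*-KO replicate 3 were *ZW10*, *KNTC1*, *ZWINT* and *SPDL1*, where 15.1% of all genes passed and 7.41% were called higher. *SPDL1* (spindly, the dynein adaptor) lies on chromosome 5 of GRCh37 from 169010640 to 169031782 and had the lowest p-value of the 45 genes. Its level was 34.1, 30.8 and 35.0 CPM in *ZK3*-WT cells and 51.5, 56.1 and 42.0 CPM in *ZK3*-KO cells. Every *ZK3*-KO library was above every *ZK3*-WT library on this scale, but in TPM *ZK3*-KO replicate 3 fell within the *ZK3*-WT range, at 25.4 against 22.9 to 25.4. By edgeR's test the log2 difference was 0.58 (SE 0.158) with an unadjusted p = 0.00700 and FDR 0.120. Its FDR ranged from 0.0129 without *ZK3*-KO replicate 3 to 0.437 over the alternatives, and it was 0.0280 with DESeq2. *ZW10*, on chromosome 11 from 113603909 to 113644457, hardly varied in *ZK3*-WT cells, at 26.5, 25.5 and 26.4 CPM. In *ZK3*-KO cells it had 38.3, 45.3 and 27.9 CPM, all above the *ZK3*-WT values, although *ZK3*-KO replicate 3 was above them by a small margin and in TPM lay below them, at 16.2 against 19.2 in each *ZK3*-WT library. This gave a log2 difference of 0.51 (SE 0.195, FDR 0.231), and 0.68 without *ZK3*-KO replicate 3 (FDR 0.0155, and up to 0.576 in the other alternatives). It was 0.34 without *ZK3*-KO replicate 2.

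*ZWINT*, a binding partner of KNL1, had the largest fold change of this group and the second largest of all 45 genes. Its level was 47.6, 37.7 and 36.6 CPM in *ZK3*-WT cells and 73.7, 105 and 26.2 CPM in *ZK3*-KO cells. Its change amounted to 0.75 in log2 units (SE 0.438, FDR 0.410). Without *ZK3*-KO replicate 3, the only *ZK3*-KO library below the *ZK3*-WT range, it was 1.15 (FDR 0.00655, and up to 0.749 in the other alternatives). It was 0.30 without *ZK3*-KO replicate 2. *CENPF*, by contrast, differed little on average, with a log2 value of 0.06 (SE 0.411, FDR 0.958) that changed sign in 7 alternatives and was 0.42 without *ZK3*-KO replicate 3. Its values were 405, 244 and 240 CPM in *ZK3*-WT cells and 397, 391 and 138 CPM in *ZK3*-KO cells, so *ZK3*-WT replicate 1 was the highest library and *ZK3*-KO replicate 3 the lowest. *CENPE*, a kinesin that moves chromosomes to the spindle equator, had a log2 fold change of 0.09 (FDR 0.932), or 0.42 without *ZK3*-KO replicate 3 and -0.05 without *ZK3*-KO replicate 2. *ZWILCH* shares up to 149 bp of exon sequence with *RPL4* on the opposite strand, which held up to 200293 reads in a library, and whether strand was used in counting is not given in the sources used here.

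The KMN network consists of KNL1, the MIS12 complex (*MIS12*, *DSN1*, *NSL1* and *PMF1*) and the NDC80 complex (*NDC80*, *NUF2*, *SPC24* and *SPC25*), which grips the microtubule. The median log2 fold change of its 9 genes was 0.34, or 0.51 without *ZK3*-KO replicate 3 and 0.09 without *ZK3*-KO replicate 2. In the fit without *ZK3*-KO replicate 3, 2 of them (*KNL1* and *DSN1*) passed, where 15.1% of all genes passed and 7.41% were called higher. *DSN1* had the largest value, with 26.6, 19.9 and 18.8 CPM in *ZK3*-WT cells and 35.2, 41.0 and 17.6 CPM in *ZK3*-KO cells. The log2 difference between genotypes was 0.52 (SE 0.315, FDR 0.423), and 0.82 without *ZK3*-KO replicate 3 (FDR 0.0190, and up to 0.760 in the other alternatives). Leaving out *ZK3*-KO replicate 2 gave 0.28. *NDC80* had the smallest absolute change of the 45 genes, with 45.2, 37.5 and 48.9 CPM in *ZK3*-WT cells and 46.2, 45.8 and 39.9 CPM in *ZK3*-KO cells. Here the groups overlapped, and the log2 fold change was 0.00 (0.00249, SE 0.156, FDR 0.995), with a sign that depended on the scaling and a value of 0.07 without *ZK3*-KO replicate 3. *PMF1* was among the genes whose groups did not overlap in CPM (they did in TPM), at 27.0, 20.3 and 23.4 CPM in *ZK3*-WT cells and 29.0, 29.3 and 31.2 CPM in *ZK3*-KO cells (log2 fold change 0.34, SE 0.157, FDR 0.305). Its value hardly depended on *ZK3*-KO replicate 3 (0.31 without it), but *PMF1* shares exons with the readthrough gene *PMF1-BGLAP* (up to 182 reads). *NSL1* had 24.3, 26.0 and 25.1 CPM in *ZK3*-WT cells and 30.4, 38.6 and 19.4 CPM in *ZK3*-KO cells (log2 fold change 0.23, SE 0.245, FDR 0.670, 0.46 without *ZK3*-KO replicate 3 and -0.01 without *ZK3*-KO replicate 2).

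The widest spread among *ZK3*-KO libraries was that of *KNL1*, the scaffold that recruits the checkpoint proteins. It had 93.9, 60.2 and 58.6 CPM in *ZK3*-WT cells and 117, 128 and 27.8 CPM in *ZK3*-KO cells, and *ZK3*-KO replicate 3 differed by -2.14 on the log2 scale from the mean of the other *ZK3*-KO libraries. *KNL1* was picked for this once its values were known. Its log2 value was 0.36 with all libraries (SE 0.510, FDR 0.758) and 0.80 without *ZK3*-KO replicate 3 (FDR 0.0308, and up to 0.992 in the other alternatives). It was 0.03 without *ZK3*-KO replicate 2.

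The inner centromere genes encode the CENPA histone and the network assembled on it. This was the group with fold changes in both directions: 10 of 13 were above 0 and 3 below, with a median of 0.22, or 0.54 without *ZK3*-KO replicate 3 and 0.07 without *ZK3*-KO replicate 2. The genes below 0 were *CENPH* (-0.27), *CENPL* (-0.21) and *CENPA* (-0.12), and none of them passed in any of the fits. *CENPA* had -0.05 without *ZK3*-KO replicate 3. It shares up to 138 bp of exon sequence with *SLC35F6* on the same strand, which held up to 6913 reads in a library. *CENPP*, a subunit of the CENPO complex, had the highest value of all 45 genes and the lowest level. Its level was 6.20, 4.88 and 5.13 CPM in *ZK3*-WT cells and 8.91, 14.7 and 3.82 CPM in *ZK3*-KO cells (log2 fold change 0.76, SE 0.439, FDR 0.405). Leaving out *ZK3*-KO replicate 3 gave 1.14 (FDR 0.0173, and up to 0.790 in the other alternatives), and leaving out *ZK3*-KO replicate 2 gave 0.24. *CENPP* shares up to 2875 bp of exon sequence with *IPPK* on the opposite strand. *IPPK* held up to 1962 reads in a library, where *CENPP* had 236 to 1020, and the part of such reads in this value was not tested. *CENPW*, which pairs with CENPT in a histone-like fold, lies on chromosome 6 from 126661261 to 126670021. Its counts were 10.7, 7.29 and 8.68 CPM in *ZK3*-WT cells and 15.4, 18.4 and 10.8 CPM in *ZK3*-KO cells, so that *ZK3*-KO replicate 3 was just above the highest *ZK3*-WT library (in TPM it was below it, at 20.8 against 25.2). By edgeR's test the log2 difference was 0.74 (SE 0.249) with an unadjusted p = 0.0187 and FDR 0.183, and 0.94 without *ZK3*-KO replicate 3 (FDR 0.0172, and up to 0.540 in the other alternatives). *CENPW* had 0.56 without *ZK3*-KO replicate 2. Its partner *CENPT* had 33.1, 30.0 and 40.9 CPM in *ZK3*-WT cells and 34.7, 33.1 and 47.6 CPM in *ZK3*-KO cells (log2 fold change 0.15, FDR 0.738, and -0.03 without *ZK3*-KO replicate 3).

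*CENPH*, which forms a complex with CENPI and CENPK, had the lowest value of the 45 genes. Its level was 14.3, 7.86 and 10.2 CPM in *ZK3*-WT cells and 11.7, 9.65 and 5.60 CPM in *ZK3*-KO cells (log2 fold change -0.27, SE 0.327, FDR 0.718), and it was -0.01 without *ZK3*-KO replicate 3. The same library decided *CENPL*, with 14.2, 12.7 and 13.6 CPM in *ZK3*-WT cells and 13.9, 14.3 and 6.93 CPM in *ZK3*-KO cells (log2 fold change -0.21, SE 0.280, FDR 0.745, and 0.07 without it). *CENPQ* had 8.46, 6.96 and 7.29 CPM in *ZK3*-WT cells and 11.8, 15.5 and 5.45 CPM in *ZK3*-KO cells (log2 fold change 0.53, SE 0.357, FDR 0.477), which was 0.86 without *ZK3*-KO replicate 3 (FDR 0.0201, and up to 0.819 in the other alternatives). Leaving out *ZK3*-KO replicate 2 gave 0.19. *CENPC*, the protein that ties CENPA nucleosomes to the MIS12 complex, had 24.3, 18.2 and 18.5 CPM in *ZK3*-WT cells and 30.7, 27.9 and 13.9 CPM in *ZK3*-KO cells (log2 fold change 0.25, SE 0.300, FDR 0.713), which was 0.53 without *ZK3*-KO replicate 3 (FDR 0.0630, and up to 0.974 in the other alternatives) and 0.05 without *ZK3*-KO replicate 1. Across the group, *ZK3*-KO replicate 3 was the lowest of the 6 libraries for 10 of 13 genes (27.5% of all tested genes). In the fit without it 5 genes passed (*CENPO*, *CENPP*, *CENPQ*, *CENPU* and *CENPW*), where 15.1% of all genes passed and 7.41% were called higher.

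The chromosomal passenger complex (*AURKB*, *INCENP*, *BIRC5* and *CDCA8*) corrects faulty attachments at the centromere. The median of the log2 values of its 4 genes was 0.42, or 0.57 without *ZK3*-KO replicate 3 and 0.26 without *ZK3*-KO replicate 2. *BIRC5*, on chromosome 17 from 76210267 to 76221717, had 150, 107 and 126 CPM in *ZK3*-WT cells and 174, 207 and 155 CPM in *ZK3*-KO cells. The groups did not overlap, but *ZK3*-KO replicate 3 and *ZK3*-WT replicate 1 were close, and in TPM they crossed, at 101 and 121. By edgeR's test the log2 difference was 0.49 (SE 0.186) with an unadjusted p = 0.0327 and FDR 0.228, and 0.59 without *ZK3*-KO replicate 3 (FDR 0.0414, and up to 0.624 in the other alternatives). It was 0.37 without *ZK3*-KO replicate 2. *AURKB*, the kinase of the complex, had 67.4, 46.6 and 60.0 CPM in *ZK3*-WT cells and 64.8, 65.1 and 54.0 CPM in *ZK3*-KO cells, within the same range. At 0.08 (SE 0.178, FDR 0.850) its log2 value was the smallest of the complex, and it was below 0 in 2 alternatives and 0.17 without *ZK3*-KO replicate 3. *INCENP*, the scaffold, and *CDCA8* (borealin) had values of 0.45 and 0.39, and 0.79 and 0.56 without *ZK3*-KO replicate 3, the one fit of those run in which both passed (15.1% of all genes passed there). Leaving out *ZK3*-KO replicate 2 gave 0.25 and 0.28.

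The SKA complex tracks microtubule ends together with NDC80. Its 3 genes had a median of 0.26, or 0.59 without *ZK3*-KO replicate 3 and 0.07 without *ZK3*-KO replicate 2. *SKA2* had 62.4, 43.7 and 48.4 CPM in *ZK3*-WT cells and 79.6, 75.8 and 55.7 CPM in *ZK3*-KO cells, with *ZK3*-KO replicate 3 inside the *ZK3*-WT range. Between genotypes it differed by 0.45 on the log2 scale (SE 0.202, FDR 0.294), and 0.60 without that library (FDR 0.0395, and up to 0.692 in the other alternatives). Leaving out *ZK3*-KO replicate 2 gave 0.39. *SKA1* stayed close to level, with 32.1, 30.9 and 41.1 CPM in *ZK3*-WT cells and 38.8, 34.9 and 34.0 CPM in *ZK3*-KO cells (log2 fold change 0.05, SE 0.163, FDR 0.905), and its sign changed in 5 alternatives, library totals among them, with 0.09 without *ZK3*-KO replicate 3. *SKA3* had a log2 fold change of 0.26 (FDR 0.750), or 0.59 without *ZK3*-KO replicate 3 (FDR 0.0549, and up to 0.992 in the other alternatives). It was -0.12 without *ZK3*-KO replicate 2.

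**Figure D3:**
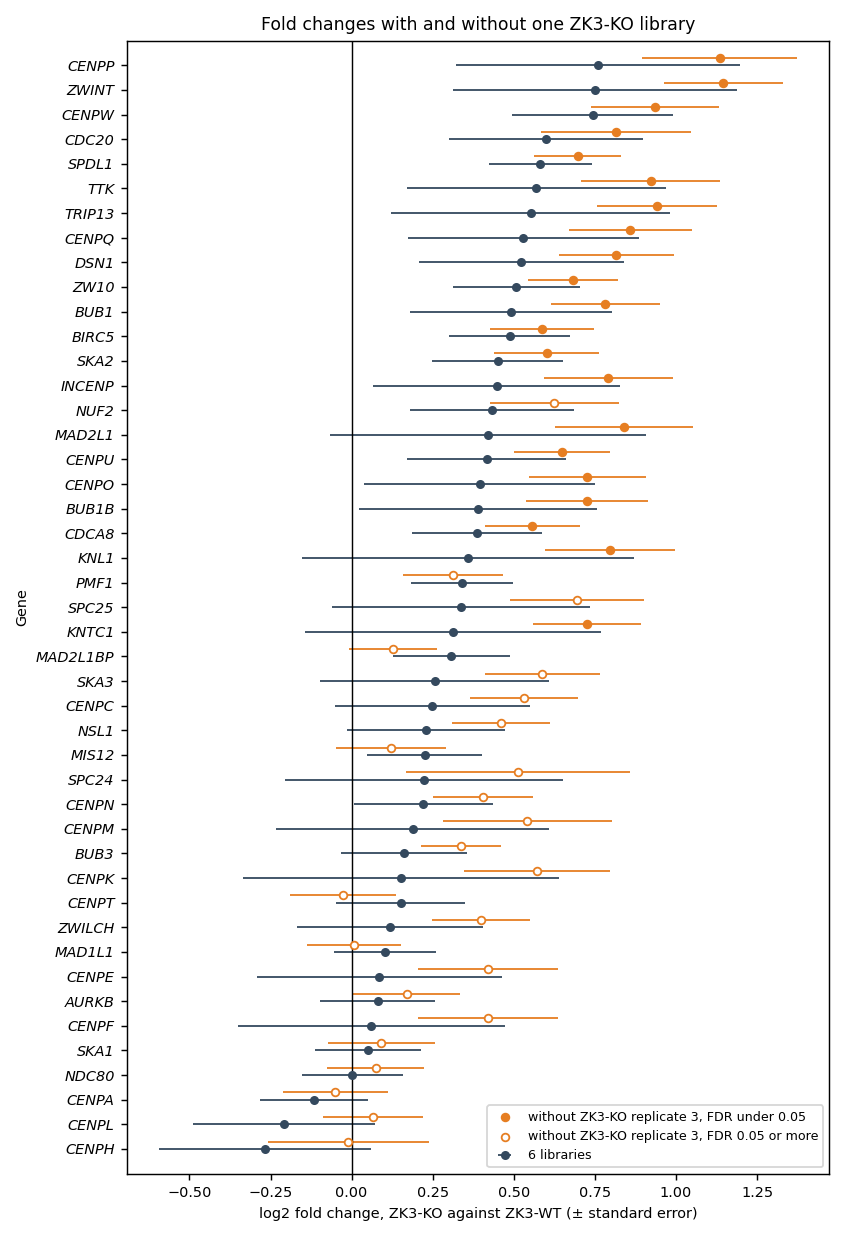
Points give the log2 fold change of *ZK3*-KO against *ZK3*-WT cells from edgeR and bars its SE, with all 6 libraries (dark) and without *ZK3*-KO replicate 3 (orange). Filled orange points are the 21 genes past an FDR of 0.05 in the second fit, and no dark point passed.

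The position of *ZK3*-KO replicate 3 divided the genes. It was below both other *ZK3*-KO libraries for 40 of 45 genes (41.4% of all tested genes). For the remaining 5, *MAD1L1*, *MAD2L1BP*, *MIS12*, *PMF1* and *CENPT*, it was above both and the highest of all 6 libraries (28.8% of all tested genes). In TPM this held for 2 of them, *MAD2L1BP* and *CENPT*. *ZK3*-KO replicate 3 was the lowest of the 6 libraries for 36 of the 45 genes in TPM, against 27 in CPM (27.5% of all tested genes in CPM). The share of all tested genes in TPM was not worked out. The difference from the mean of the other *ZK3*-KO libraries had a median of -1.02 over the 45 genes and 0.01 over all tested genes. By complex, the median was -1.35 for the RZZ and corona genes, -1.10 for the checkpoint genes, -1.02 for the inner centromere genes, -0.82 for the KMN network, -0.48 for the SKA complex and -0.43 for the passenger complex. *ZK3*-WT libraries varied in step too: replicate 1 was the highest of the 3 for 35 genes (39.3% of all tested genes), and replicate 2 was the lowest for 37 (32.7% of all tested genes). The median SD of log2 CPM was 0.23 in *ZK3*-WT and 0.592 in *ZK3*-KO cells for the 45 genes, against 0.206 and 0.354 for all tested genes.

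Other genes of the cell cycle were measured beside these. Set against the average of *ZK3*-WT cells, the 45 genes had median log2 levels of 0.52, 0.71 and -0.37 in the *ZK3*-KO libraries. A list of 38 S phase genes (among them the *MCM* helicase subunits and *PCNA*) had medians of 0.78, 1.27 and -0.62, and 48 G2 and M phase genes without any of the 45 (among them *TOP2A* and *MKI67*) had 0.51, 0.60 and -0.29. In *ZK3*-WT replicates 1, 2 and 3 the medians were 0.23, -0.20 and -0.04 for the 45 genes, 0.29, -0.14 and -0.10 for S phase genes and 0.29, -0.24 and -0.05 for G2 and M phase genes. All 3 lists placed the libraries in the same order at the top and bottom, with *ZK3*-KO replicate 2 highest and *ZK3*-KO replicate 3 lowest. With all libraries, the median log2 fold change was 0.66 for the S phase list and 0.31 for the G2 and M phase list, and edgeR's test called no gene of either at an FDR of 0.05, where 2.05% of all tested genes passed, while 5 and 3 genes reached an unadjusted p of under 0.05, where 18.4% of all did. Without *ZK3*-KO replicate 3, 33 of the 38 S phase genes (median 1.04) and 19 of the 48 G2 and M phase genes (median 0.55) passed, all higher in *ZK3*-KO cells, beside 21 of the 45 kinetochore genes and 15.1% of all genes. The part of cell cycle distribution in the fold changes of the kinetochore genes was not tested.

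**Figure D4:**
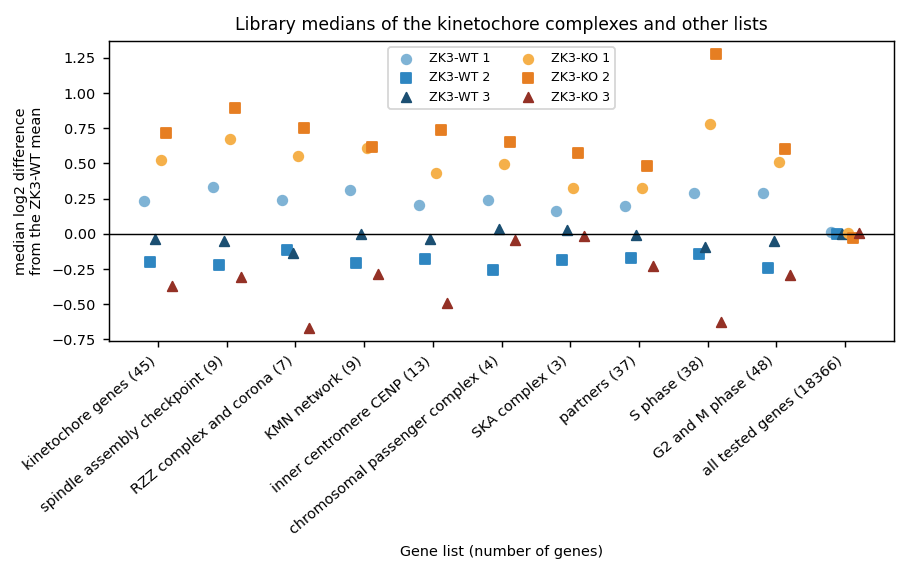
For each list, points give the median over its genes of the log2 CPM in a library relative to the *ZK3*-WT mean. *ZK3*-KO replicate 2 is the highest and *ZK3*-KO replicate 3 the lowest for the 45 kinetochore genes (0.71 and -0.37), the S phase and the G2 and M phase lists. All tested genes stay near 0, which the scaling of libraries largely sets. With library totals alone (not drawn), *ZK3*-KO replicate 3 is at -0.17 for all tested genes and -0.55 for the 45.

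Since the genes varied together between libraries, their promoters were searched for elements known from genes of the late cell cycle. The cell cycle genes homology region (CHR, letters TTTGAA) is bound by MuvB complexes, and the CCAAT box (CCAAT) by NF-Y. Promoter windows of 300 bases from RefSeq were found for 37 of the 45 genes, and none for *BUB3*, *TTK*, *KNTC1*, *KNL1*, *CENPH*, *CENPL*, *CENPM* and *BIRC5*. On either strand, the CHR letters were in a window of 19 of 37 genes, against 18.2% of all 27305 genes with a window, and CCAAT was in 24 of 37, against 39.7% of all. The E2F-type sequences TTTCGCGC, TTTGGCGC or TTTCCCGC were in 3 (*CENPA*, *CENPU* and *MIS12*), against 3.30% of all. The background contains noncoding and inactive genes, and a match is not a bound site. No CHR match in the windows shown overlaps one of the other sequences. They show the match, in capitals, in some of the genes described above, 5′ to 3′ on the strand of the gene. The letters were in windows of 9 of the genes named in full. Not shown are *CENPF* and *SKA1*, whose matches begin after the start, at positions 41 and 35 counted from it. Also left out are *CENPC* (90 bases before the start) and another match in *CDC20* (178 bases before). A match on the other strand reads TTCAAA, and the sequences are credited to RefSeq and placed on GRCh37 by an exact match of the window.
CDC20, chr1:43824575-43824604, forward strand, 65 bases before the RefSeq start: cgacggttggatTTTGAAggagccaatagg
SPDL1, chr5:169010745-169010774, forward strand, 20 bases before the start: gcgggaactgcaTTCAAAtatcccaggcgc
ZWINT, chr10:58121034-58121063, reverse strand, 17 or 31 bases before its listed starts: gtcgactgtgacTTCAAAgtaatcttaggg
ZW10, chr11:113644621-113644650, reverse strand, 224 bases before the start: gaagcaacgaacTTTGAAaacaactaagga
NDC80, chr18:2571541-2571570, forward strand, 3 bases before the start: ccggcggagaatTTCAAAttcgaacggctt
MAD2L1BP, chr6:43603448-43603477, forward strand, 117 bases before the start: aggaacgcagggTTCAAAtcccagctccac

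The 19 genes with the CHR letters had a median log2 fold change of 0.39 and the 18 without had 0.28. In the fit without *ZK3*-KO replicate 3, 9 and 8 of them passed, where 15.1% of all genes passed and 7.41% were called higher. The median difference of *ZK3*-KO replicate 3 from the other *ZK3*-KO libraries was -0.74 with and -0.94 without the letters. For CCAAT, the 24 genes with it had a median log2 fold change of 0.40 and the 13 without had 0.26. In the same fit 13 and 4 of them passed, and the median differences of *ZK3*-KO replicate 3 were -0.94 and -0.82. For the E2F-type sequences, the median log2 fold change was 0.23 in the 3 genes with and 0.36 in the 34 without. None of these splits was tested. Among the genes whose windows are shown, *ZWINT* had one of the largest differences between *ZK3*-KO libraries (-1.75), *NDC80* a small one (-0.21) and *MAD2L1BP* one of the opposite sign (0.50).

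Partners of one complex were compared within each library by the log2 ratio of their TPM values, which does not depend on the scaling of libraries. Of 18 pairs, the groups did not overlap for 3, and with 3 against 3 libraries the exact permutation test cannot give a p-value below 0.1. For *ZW10* against *ZWILCH*, the log2 ratio was -0.02, -0.11 and -0.12 in *ZK3*-WT cells and 0.30, 0.17 and 0.66 in *ZK3*-KO cells, a difference of 0.46, or 0.32 without *ZK3*-KO replicate 3. *CENPL* against *CENPN*, which form a heterodimer, had log2 ratios of -1.56, -1.32 and -1.39 in *ZK3*-WT cells and -1.81, -1.87 and -2.25 in *ZK3*-KO cells, a difference of -0.55, or -0.42 without *ZK3*-KO replicate 3. For *CENPO* against *CENPP* the log2 ratios were 3.49, 3.56 and 3.58 against 3.12, 3.09 and 3.44, a difference of -0.32, or -0.43 without *ZK3*-KO replicate 3. Each of these 3 pairs had a two-sided exact p of 0.1, or 0.6 after adjustment over the 18 pairs, which does not pass. The groups did not overlap for 9 pairs when *ZK3*-KO replicate 3 was left out. Shares over pairs of other genes were not worked out, neither for these counts nor for the signs below. Of all tested genes taken singly, 25.2% did not overlap in TPM with all libraries. Without *ZK3*-KO replicate 3, 50.1% of all genes tested there did not overlap in CPM. Taken between libraries of the same number, an alternative chosen after seeing the data, the difference had 1 sign in all 3 numbers for 6 pairs. These were the 3 above and *NDC80* against *NUF2*, *DSN1* against *NSL1* and *CENPT* against *CENPW*. For *NDC80* against *NUF2*, subunits of one complex whose groups overlapped, it was -0.41, -0.47 and -0.32. The exact paired test cannot give a two-sided p below 0.25 with 3 pairs of libraries, and each of the 6 had 0.25, or 0.75 after adjustment over the 18. *CENPO*, *CENPP*, *CENPL*, *CENPN*, *CENPT* and *ZWILCH* overlap exons of other genes on the opposite strand. For *CENPT* these include *NUTF2*, which held up to 7635 reads in a library.

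For 11 of the 18 pairs the ratio varied less over the 6 libraries than either gene did in TPM. The range of a single gene in TPM includes the scale of each library, which a ratio cancels. The share among pairs of other genes was not worked out, so this count does not test whether partners of one complex keep their ratio. Among the 18, *BIRC5* against *CDCA8* was the steadiest, with a range of 0.37 on the log2 scale where each gene had 0.91. *CENPO* against *CENPP* ranged over 0.49 and *BUB1* against *BUB3* over 0.50. In 2 pairs the ratio varied more than both genes, *MIS12* against *PMF1* and *TRIP13* against *MAD2L1BP*. For the latter, whose products disassemble the checkpoint complex together, the log2 ratio was -0.38, -0.84 and -0.71 in *ZK3*-WT cells and -0.08, 0.38 and -2.05 in *ZK3*-KO cells. Similarly, *MAD1L1* against *MAD2L1* had log2 ratios of -0.95, -0.28 and -0.15 in *ZK3*-WT cells and -1.28, -1.38 and 0.93 in *ZK3*-KO cells. In both pairs *ZK3*-KO replicate 3 lay on the other side of the *ZK3*-WT range from *ZK3*-KO replicates 1 and 2.

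**Figure D5:**
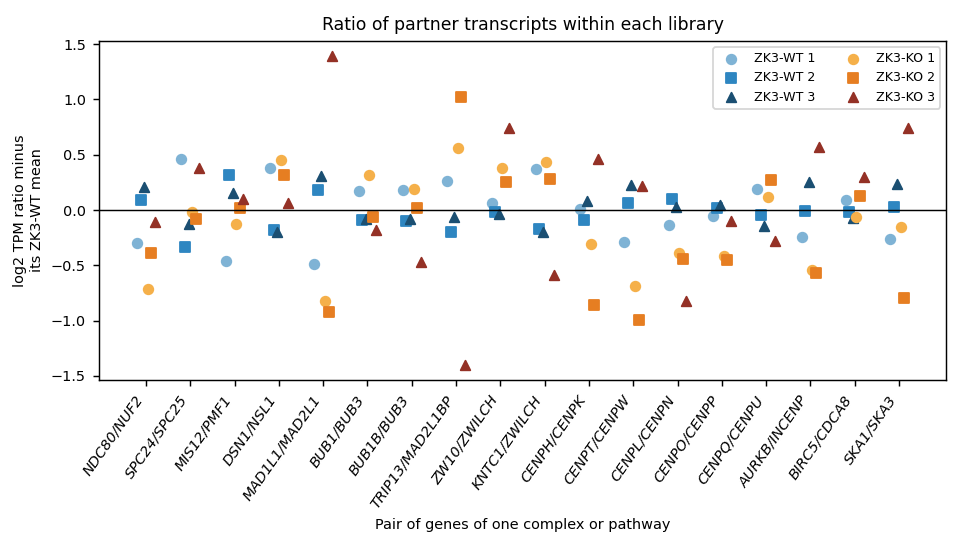
Points give the log2 ratio of TPM of the first to the second gene of a pair in each library, relative to its *ZK3*-WT mean. The steadiest pair, *BIRC5*/*CDCA8*, stays within 0.37, while *TRIP13*/*MAD2L1BP* and *MAD1L1*/*MAD2L1* spread over 2.42 and 2.31.

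A list of 38 further centromere, kinetochore and checkpoint genes was compared in the same way, and 37 were tested (*USP44* was not). Here edgeR's test called 0 at an FDR of 0.05 (2.05% of all tested genes), the unadjusted p was under 0.05 for 1 (18.4% of all), and DESeq2 called 1 (8.2% of all). The median log2 fold change was 0.30, and 31 genes were above 0 and 6 below. The gene was *RANGAP1* in both cases, which activates the GTPase Ran and sits at kinetochores in mitosis, whose log2 value was 0.58 (FDR 0.136 by edgeR, 0.0350 with DESeq2 and up to 0.480 in the other alternatives) and 0.57 without *ZK3*-KO replicate 3. Its TPM values were 73.0, 62.0 and 78.5 in *ZK3*-WT cells and 95.6, 124 and 87.6 in *ZK3*-KO cells. Without *ZK3*-KO replicate 3, 10 of the 37 passed, all with a value above 0 (15.1% of all genes tested there, and 7.41% called higher), among them *CENPX* (1.08) and *SGO2*, the protector of centromeric cohesion (0.86). The 38 genes share 9 with the G2 and M phase list, 23.7% of the former and 18.8% of the latter.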

How the data were processed

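Polyadenylated RNA of 6 libraries was sequenced from paired ends. Per the labels and the study's methods, the authors aligned reads with Bowtie2 2.2.5 to hg19 in Partek Flow. They deposited read counts per gene for each library, beside FPKM (not used here) and TPM values. Whether strand was used in counting is not given in the sources used here. Genotype and replicate number came from the sample titles. Counts were compared with edgeR 4.0.16 in R 4.3.3 (TMM scaling, filterByExpr, quasi-likelihood test of genotype), with Benjamini-Hochberg adjustment over 18366 tested genes. CPM values use TMM-scaled totals, and standard errors were taken from the fold change and its F statistic. Members were described by counts and medians beside all tested genes. Genes named in full were, besides those with an unadjusted p under 0.05, the highest and lowest fold change of each complex, the 5 highest and 5 lowest TPM levels, and genes whose groups did not overlap. The members and lists were chosen with earlier results of these data known. Deviations of same-numbered libraries correlated at 0.231, 0.102 and 0.39, and those of different numbers at -0.297 to 0.183. Each same-numbered pair was above 0.1, the rule used, although number 2 by little, so a fit with the replicate number as a block was an alternative, beside DESeq2 1.42.0, limma 3.58.1 on log2(TPM + 1) and log2(CPM + 1), other scalings and filters, and leaving out each library. Biological replicates are stated, but not whether cultures were independent, so p-values measure the spread between these libraries. Scripts were tested on simulated data. Gene positions are from GENCODE on GRCh37.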

Additional observations from a re-analysis of the deposited data

How the results depend on the processing

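The most influential library was *ZK3*-KO replicate 3. Leaving out 1 library at a time gave between 49 (without *ZK3*-WT replicate 2) and 2858 (without *ZK3*-KO replicate 3) genes past an FDR of 0.05, between 0 and 21 of the 45 genes and between 0 and 10 of the partner genes, and the groups did not overlap for between 6 (30.3% of all genes when replicate 2 of *ZK3*-WT was omitted, 34.4% when that of *ZK3*-KO was) and 32 of the 45 genes (without *ZK3*-KO replicate 3, where 50.1% did not) and for between 3 and 9 partner ratios. DESeq2 called 1506 genes, 1 of the 45 and 1 partner gene, and an unadjusted p under 0.05 was reached by 3371, 4 and 1. With library totals alone, groups did not overlap for 3 of the 45 genes, and in the deposited TPM values, chosen after seeing the data, for 2. With the replicate number as a block, 461 genes passed, 318 of them shared with the fit without it, and 0 of the 45, whose lowest FDR was 0.130, so the pairing changed no call among them, and 6 partner ratios had 1 sign in every number. Among the genes named in full, those whose sign turned are given below, and none of them passed in any fit. Other genes turned too, and 32 of the 45 were above 0 without *ZK3*-KO replicate 2 (51.9% of all tested genes). There *KNTC1*, *CENPO* and *SKA3*, at 0.31, 0.39 and 0.26 with all libraries, had -0.018, -0.0045 and -0.12. *KNTC1* and *CENPO* were among the genes that passed without *ZK3*-KO replicate 3. For *CENPF* the log2 fold change was -0.046 with the block and with limma on CPM, -0.17 with limma on TPM, and between -0.15 and 0.42 when 1 library was left out. *NDC80* had -0.074 with library totals, -0.024 with upper-quartile factors, -0.0018 with all genes of at least 1 read, -0.0068 with at least 10 reads in every library and -0.11 with limma on TPM, and between -0.10 and 0.088 when 1 library was left out. *SKA1* had -0.028 with library totals and -0.061 with limma on TPM, and between -0.029 and 0.19 when 1 library was left out. *AURKB* had -0.0053 and *MAD1L1* -0.027 with limma on TPM. When 1 library was left out, *AURKB* ranged from -0.057 to 0.20, *NSL1* from -0.013 to 0.46 and *CENPL* from -0.37 to 0.066. The causes of these turns were not tested. The median of all tested genes was 0.02, -0.07 with library totals and -0.08 with limma on TPM. With 3 libraries in each group, the exact test of a ratio cannot give a p below 0.1, or 0.25 when paired. For the counts of partner ratios, shares over pairs of other genes were not worked out.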
